A study of Mus musculus with 29 samples.

Results

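The genes described here are the mouse Cyp1, Cyp2 and Cyp3 genes other than Cyp2b, measured by RNA-seq of poly(A) RNA from whole liver. A gene was taken as a member when its symbol had the form of a Cyp1, Cyp2 or Cyp3 gene, was not Cyp2b and not a pseudogene, and had at least 100 counts summed over all mice. Members were thus chosen by name and by that total, never by a difference between groups, and 46 of the 55421 genes in the count table met it, of 55 with a matching name. Just inside the limit were Cyp2j8 with 133 counts, Cyp2t4 with 159 and Cyp2d12 with 164. Just outside it was Cyp3a57 with 85, and the other 8 excluded names had 0 to 7 counts. Cyp2j8 passed only because of its highest group, without which its total was 93.

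Mice received vehicle or HDM201, an inhibitor of MDM2 (the ubiquitin ligase that keeps p53 low), by daily oral gavage for 14 days, and HDM201 was given at 10 mg/kg. The labels give young vehicle mice as C57BL6/N at 5 months (5 females, 5 males), old females as C57BL/6J at 20 months (4 vehicle, 5 HDM201) and old males as C57BL/6J at 24 months (5 vehicle, 5 HDM201). The ages in the study's methods differ slightly from the labels. Every young mouse was of one substrain and every old mouse of the other, so age and substrain cannot be told apart, and in old mice sex and age cannot be told apart either. No young mouse received HDM201. Counts covered 27 of the 29 mice, all but old vehicle male 1 and young vehicle male 5, which had only FPKM values. The count totals were 16485900 to 23570458 per mouse, and the members took 1.23% to 2.42% of them. The 6 hepatocyte marker genes were abundant in every mouse, with sums of 69971 to 146228 CPM, counts scaled to a common library total.

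Cytochrome P450 enzymes of these families sit in the endoplasmic reticulum membrane, receive electrons from the reductase Por and insert oxygen into drugs, steroids and fatty acids. In mouse liver many of them are made mainly in one sex, a difference set by the pattern of growth hormone release through the transcription factor STAT5, with the repressor Cux2 made in females. Others follow ligands of the nuclear receptors CAR and PXR or of the aryl hydrocarbon receptor, and several, Cyp2e1 and Cyp1a2 among them, are made around the central vein of the lobule.

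The genes lie mostly in tandem clusters. In the mm10 assembly 13 Cyp2c members span chr19:39007019-44029208, 8 Cyp3a members chr5:137892932-146113287, 7 Cyp2d members chr15:82370527-82794294 and 4 Cyp2a members chr7:26307169-27037375. Neighbours can be near copies, which limits what short reads can assign to each. Of the 50-base words in Cyp3a41a transcripts 98.6% also occur in other genes, chiefly Cyp3a41b. The share was 60.3% for Cyp2c40, 54.3% for Cyp2c69, 52.8% for Cyp2c67 and 43.3% for Cyp2c68, which share words with each other, and 38.0% for Cyp2a4, whose main partner is Cyp2a5. Values of these genes are therefore less certain than those of single genes such as Cyp2e1.

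The 250 bases before the start site are shown for 3 such pairs, taken from RefSeq (GRCm38.p6), because the members of each pair differ little there. These bases lie before the RefSeq start, but for Cyp2a4, Cyp2a5 and Cyp2c69 the last of them fall inside the gene as annotated by GENCODE. Their identity does not measure how well reads tell the genes apart. Capitals mark bases that have no identical partner in the other gene of the pair when both are laid side by side without gaps. Each runs 5′ to 3′ on the strand of the gene.
Cyp2a4, chr7:26306942-26307191, plus strand: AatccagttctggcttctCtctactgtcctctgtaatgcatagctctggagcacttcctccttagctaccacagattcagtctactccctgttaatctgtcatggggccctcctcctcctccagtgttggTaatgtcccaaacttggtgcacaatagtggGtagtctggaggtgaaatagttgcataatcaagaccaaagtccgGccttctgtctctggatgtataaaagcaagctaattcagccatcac
Cyp2a5, chr7:26835089-26835338, plus strand: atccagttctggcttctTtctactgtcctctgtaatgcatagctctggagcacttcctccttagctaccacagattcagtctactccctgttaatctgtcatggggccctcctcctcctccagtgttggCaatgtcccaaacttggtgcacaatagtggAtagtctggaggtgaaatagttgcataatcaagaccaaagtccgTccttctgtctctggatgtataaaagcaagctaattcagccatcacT
Cyp3a41a, chr5:145720137-145720386, minus strand: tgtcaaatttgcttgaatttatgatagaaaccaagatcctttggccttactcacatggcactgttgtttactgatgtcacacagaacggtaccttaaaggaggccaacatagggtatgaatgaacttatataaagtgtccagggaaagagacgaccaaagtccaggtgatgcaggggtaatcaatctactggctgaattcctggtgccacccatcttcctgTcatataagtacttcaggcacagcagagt
Cyp3a41b, chr5:145584731-145584980, minus strand: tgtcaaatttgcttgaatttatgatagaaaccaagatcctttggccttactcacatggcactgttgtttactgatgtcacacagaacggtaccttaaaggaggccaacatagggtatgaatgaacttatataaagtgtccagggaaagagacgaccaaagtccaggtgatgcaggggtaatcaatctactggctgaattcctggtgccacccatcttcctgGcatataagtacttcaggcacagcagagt
Cyp2c40, chr19:39812815-39813064, minus strand: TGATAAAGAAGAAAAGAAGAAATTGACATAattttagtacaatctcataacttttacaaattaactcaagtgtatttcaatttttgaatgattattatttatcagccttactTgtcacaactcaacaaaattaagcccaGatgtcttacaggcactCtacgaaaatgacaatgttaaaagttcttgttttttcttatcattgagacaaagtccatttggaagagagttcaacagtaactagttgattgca
Cyp2c69, chr19:39886770-39887019, minus strand: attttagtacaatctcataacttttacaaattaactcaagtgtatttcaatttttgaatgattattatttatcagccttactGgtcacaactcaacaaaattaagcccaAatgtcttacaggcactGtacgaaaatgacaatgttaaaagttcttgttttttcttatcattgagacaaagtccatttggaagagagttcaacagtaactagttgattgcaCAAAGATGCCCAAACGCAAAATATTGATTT
The Cyp2a4 and Cyp2a5 windows were identical at 245 of 249 compared bases, with their annotated starts offset by 1 base. The Cyp3a41a and Cyp3a41b windows were identical at 249 of 250. The Cyp2c40 and Cyp2c69 windows shared 217 of 220 compared bases, and the runs of capitals at their ends come from annotated starts that lie 30 bases apart.

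Of the 46 members, 40 had a RefSeq promoter window of 300 bases (250 before to 50 after the start), 42 windows in all because Cyp2c39 and Cyp3a25 had 2 each. Letters were searched on both strands, and a match describes letters only. TTCNNNGAA, the core that STAT5 recognises, was in 0 of the 42 windows and in 8.3% of 32851 windows of all genes. GCGTG, the core of the aryl hydrocarbon receptor element, was in 5 member windows (11.9%, against 32.4% of all), those of Cyp1a1, Cyp1b1, Cyp2c68, Cyp2j9 and Cyp2r1. GTTAAT, one arm of the site that HNF1 binds, was in 6 (14.3%, against 7.1% of all), those of Cyp2a4, Cyp2a5, Cyp2c40, Cyp2c68, Cyp2c69 and Cyp2d26.

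Levels of different genes are compared here only as RPKM, CPM divided by the exon length in kilobases. Cyp2e1, which oxidises ethanol, acetone and paracetamol, had the highest median RPKM of the members in both sexes of vehicle mice, with 2410 in young females, 2379 in young males, 1342 in old vehicle females and 2001 in old vehicle males. In young females Cyp2d26 (658), Cyp2a4 (568.9) and Cyp2d10 (500.7) came next by median RPKM. In young males the next were Cyp2f2 (587.4), Cyp2c29 (552) and Cyp2d26 (550.5). The order below Cyp2e1 was another in the deposited values. In the deposited FPKM of young males Cyp3a11 (median 866.5), Cyp2c29 (849.3) and Cyp2d10 (802.7) came next, and in those of young females Cyp2d10 (843.8), Cyp2c29 (656.7) and Cyp2d26 (640.8). At the low end, Cyp2d12, Cyp2j8 and Cyp2t4 stayed under 1 CPM in every mouse and were too low to test in the 6 comparisons of single groups.

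Differences between the sexes were the largest found. They were tested with edgeR's quasi-likelihood F-test at a false discovery rate (FDR) under 0.05 over all genes tested, and the log2 fold changes given with their standard errors (SE) come from that fit. In young vehicle mice 18 of 42 tested members passed, 15 higher in females and 3 higher in males, where 10.5% of all genes tested passed (5.63% higher in females, 4.91% lower). In old vehicle mice 24 of 42 passed, 15 higher in females and 9 lower, where 18% of all genes did (8.4% higher, 9.6% lower). The CPM of the sexes did not overlap for 18 tested members in young and 27 in old mice, against 12.8% and 23% of all genes tested. The median log2 difference of the tested members, females minus males, was 0.41 in young and 0.13 in old mice, against medians close to 0 over all genes tested. Cyp3a16, Cyp3a41a, Cyp3a41b and Cyp3a44 entered these tests only through their level in females, so their part in the counts was set in advance. For Cyp2a4 and Cyp2g1 in young mice, and for Cyp2a4, Cyp2c39, Cyp2c69 and Cyp2g1 in old mice, the males alone did not reach the filter either, with 1 to 3 of 4 males over the count it asks of 4 mice.

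The 4 Cyp3a genes Cyp3a16, Cyp3a41a, Cyp3a41b and Cyp3a44, which lie in one cluster and encode steroid and drug hydroxylases, were near 0 in males. Cyp3a41a was at 177, 124, 174, 41.8 and 133 CPM in young females 1 to 5 and at 258, 190, 245 and 261 CPM in old vehicle females. In the 4 young males it had 0 counts, and in the old males the highest level was 0.402 CPM. The sexes therefore did not overlap at any age, and young females were at least 3232-fold above the floor of 3 counts over the young male group. Cyp3a16 had 0 counts in young males as well, against 95.7, 28.2, 146, 2.12 and 95.2 CPM in young females, at least 1845-fold higher. Cyp3a44 had 2 counts over the young males and 8411 over the young females, which gave a ratio of 3403 (exact 95% limits 942 and 28103 for counting error alone). For Cyp3a41b the counts were 1 and 441, for a ratio of 357 (63.7 to 14126). Young female 4 was lowest of the young females for each of the 4 genes.

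**Figure D1:**
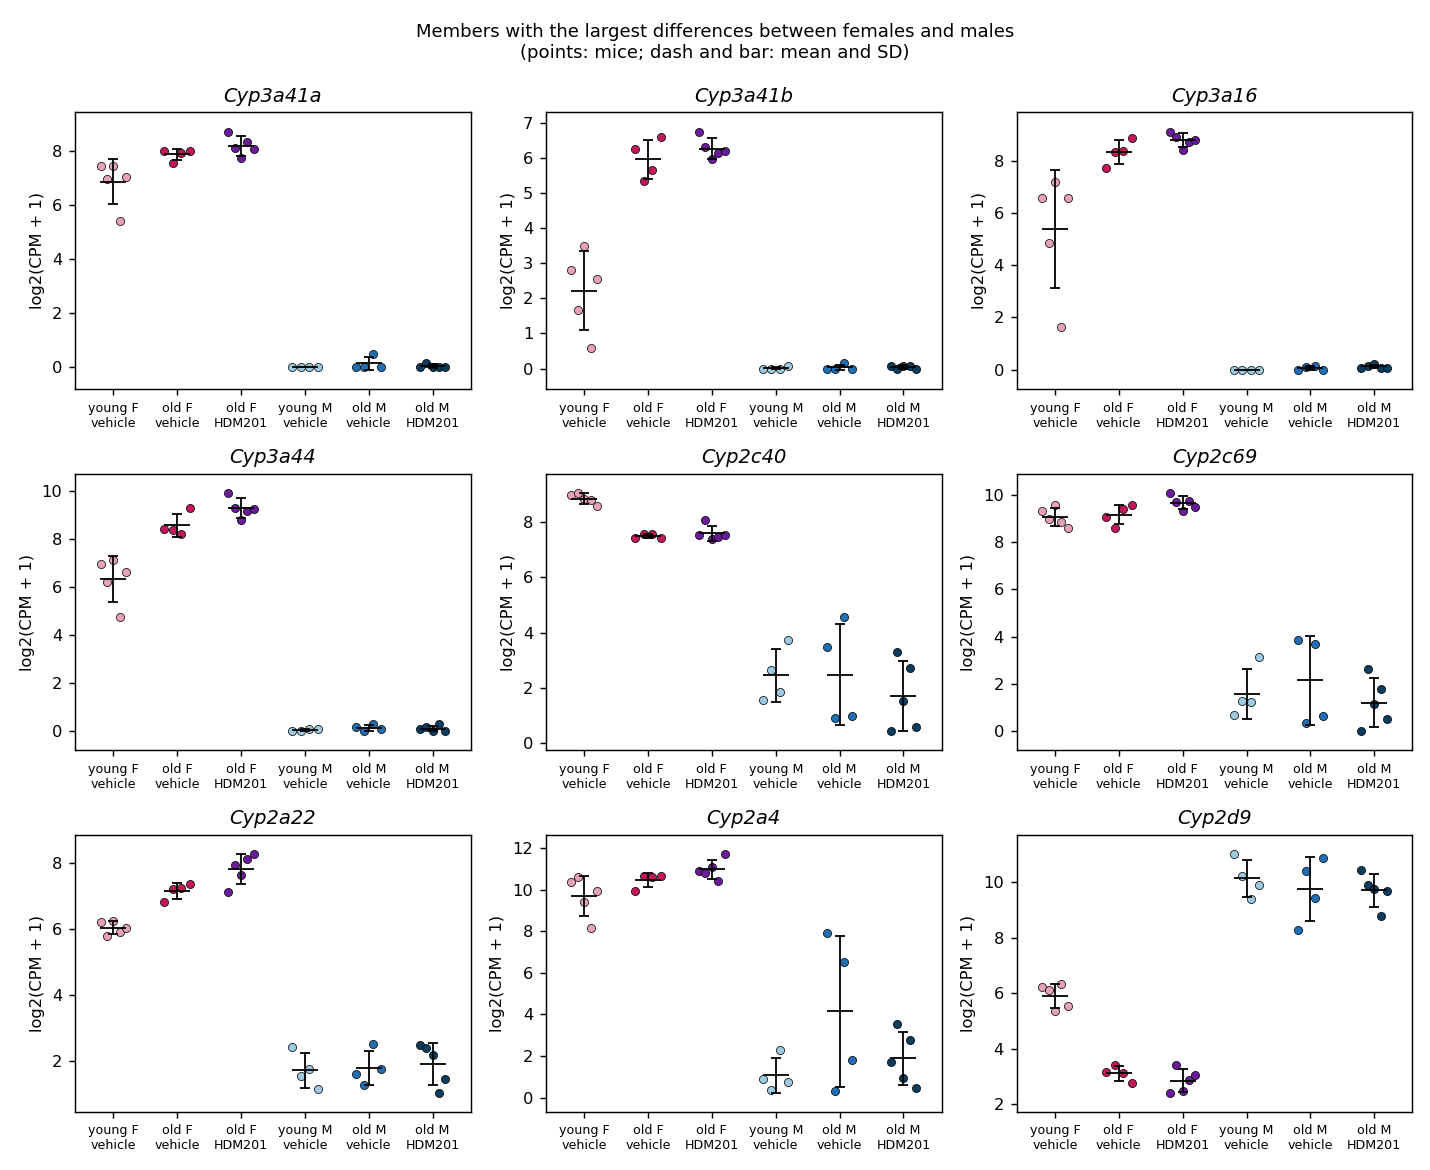
Level of 9 members in each mouse as log2(CPM + 1) on the y axis, by group on the x axis (F, female; M, male); points are mice, dashes group means and bars the SD. The 4 Cyp3a genes shown sit near 0 in all males, Cyp2a4 spreads from 0.232 to 242 CPM among old vehicle males, and Cyp2d9 is the gene that is higher in males.

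By rule, the genes whose log2(CPM + 1) was closest to that of the 3 listed members with the largest sex differences were sought over all 27 mice. For Cyp3a41a these were Cyp3a44 (Pearson r = 0.99), Hao2 and Eci3, and for Cyp3a16 and Cyp3a44 the sulfotransferases Sult2a1 and Sult2a2 were among the 3 closest. These values describe points that fall into a female and a male cluster.

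Members of the Cyp2a and Cyp2c clusters were also higher in females. Cyp2a4, a testosterone hydroxylase, was at 1329, 1547, 685, 288 and 989 CPM in young females and at 0.843, 0.284, 3.8 and 0.681 CPM in young males, without overlap (9.41, SE 0.77, FDR 1.13e-05). In old mice the sexes did not overlap either, but with 242, 0.232, 89.3 and 2.55 CPM in the old vehicle males the difference did not pass (4.10, SE 1.32, FDR 0.0577), and it did pass without old vehicle male 2 or 3 (lowest FDR 0.0264). This difference also passed by DESeq2, without the low-count filter, with all 6 groups in one fit and on log2(FPKM + 1). It did not pass with RLE size factors or with replicate number as a block. Cyp2a22 was at 74, 54.5, 75.9, 59.6 and 65.6 CPM in young females and at 4.4, 1.93, 2.39 and 1.23 CPM in young males, without overlap, and its log2 difference was 4.74 (SE 0.28, FDR 4.54e-07) in young and 5.77 (SE 0.30, FDR 2.65e-06) in old mice. Cyp2c40 had 507, 535, 460, 450 and 383 CPM in young females and 1.93, 5.29, 2.61 and 12.2 CPM in young males. Its log2 difference was 6.37 (SE 0.48, FDR 5.62e-06) in young and 4.40 (FDR 0.0058) in old mice. Cyp2c69, its near copy, differed by 7.55 (FDR 1.34e-05) in young and 6.46 (FDR 0.00184) in old mice. Smaller differences in the same direction passed in both ages for Cyp2c39 (3.13 and 2.42), the olfactory P450 Cyp2g1 (3.35 and 3.13), Cyp2c37 (1.70 and 1.29), Cyp2c38 (1.63 and 1.29), Cyp3a59 (1.16 and 1.97), Cyp2c68 (0.96 and 0.71) and Cyp2a12 (0.55 and 0.47), where each pair is the log2 difference in young and then in old mice. In old mice the call of Cyp2c38 was lost without any one of 5 mice and that of Cyp2c68 without any one of 7 (highest FDR 0.0696 and 0.112).

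Cyp2d9, the testosterone 16-alpha hydroxylase made in male liver, went the other way. It was at 73.4, 68, 40.6, 80.1 and 45.3 CPM in young females and at 2072, 1216, 668 and 965 CPM in young males, and the sexes did not overlap at either age. Its log2 difference was -4.34 (SE 0.32, FDR 5.12e-06) in young and -7.08 (SE 0.58, FDR 6.58e-05) in old mice. Cyp2u1, a fatty acid hydroxylase, was at 4.37 to 5.4 CPM in young females and 22 to 34.5 CPM in young males, and its difference was -2.62 (FDR 2.01e-07) in young and -3.50 (FDR 9.85e-04) in old mice. Cyp2j9 was lower in young females (-1.06, FDR 0.00469). In old mice alone the test was also passed by Cyp2c54, Cyp2c67, Cyp3a11, Cyp2f2, Cyp2e1, Cyp2j6 and Cyp2d22, lower in females by 0.34 to 2.47 on the log2 scale, and by Cyp2d26, higher in females by 0.55. Of these Cyp2j6 and Cyp3a11 did not pass on log2(FPKM + 1) (FDR 0.121 and 0.0563), and Cyp2d22 did not pass with all 6 groups in one fit (FDR 0.0697). A call at one age only does not show that the sex difference changed with age. That was tested with an interaction term, which Cyp2c54, Cyp2c67 and Cyp2j6 of these passed, as described with the age comparisons.

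Among regulators, Cux2 was at 34.5 to 129 CPM in young females and 0.227 to 3.26 CPM in young males (log2 difference 5.78 in young and 5.32 in old mice). Trim24, a corepressor, was also higher in females (1.32 and 0.98), as was Nr1i3, which encodes CAR (1.05 and 0.61). Of 21 tested transcription factors of Cyp genes 3 were higher and 2 lower in young females, and 3 higher and 3 lower in old ones. Of 5 tested genes of the aryl hydrocarbon receptor battery outside the Cyp1 family, 3 were higher and 2 lower in young females, and 2 lower in old ones. Of 13 genes of the growth hormone and sex axis, 4 were higher and 1 lower in young females, and 4 higher in old ones. Macrophage markers were higher in females too, 4 of 8 in young and 3 of 8 in old mice, with summed levels of 156 to 230 CPM in young females and 74.2 to 149.9 CPM in young males, as were 2 of 5 endothelial markers in young and 4 of 5 in old mice, while 1 and 2 of 6 hepatocyte markers were lower in females. Their part in the member differences was not tested. In bulk liver fewer cells of a type and less RNA per cell cannot be told apart.

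**Figure D2:**
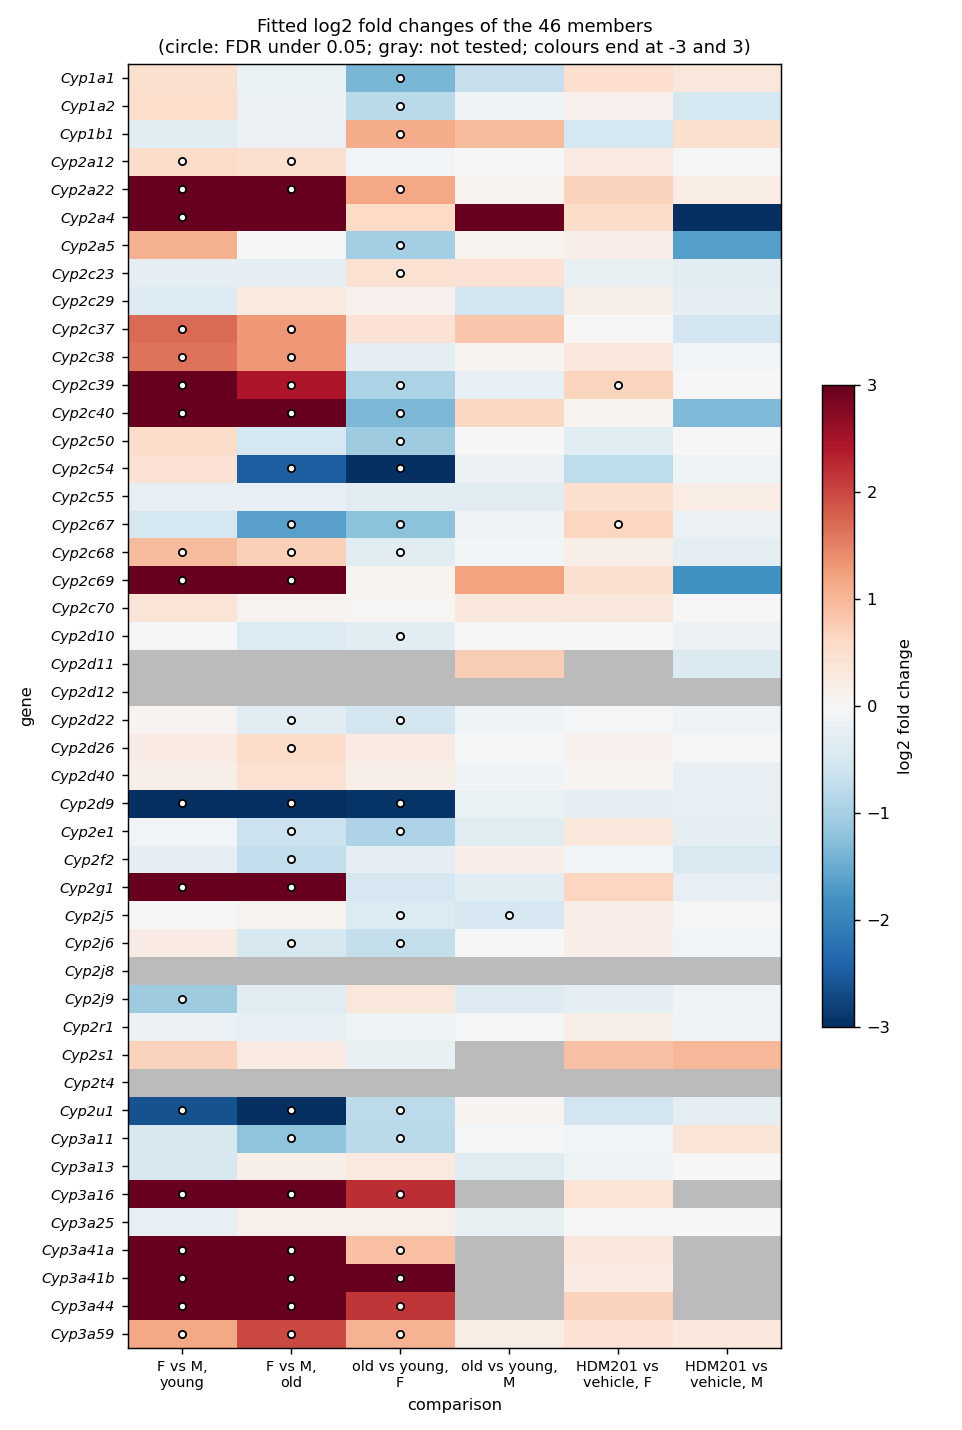
Fitted log2 fold change (colour) of each of the 46 members (rows) in 6 comparisons (columns); colours end at -3 and 3, circles mark an FDR under 0.05 and gray cells genes too low to test. Most circles lie in the first 3 columns, with 18, 24 and 25 members, against 1, 2 and 0 in the last 3.

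Old and young vehicle females differed in 25 of 42 tested members, 8 higher and 17 lower in the old, where 31.8% of all genes tested passed, 16.8% higher and 15% lower. The groups did not overlap for 23 members, against 25.8% of all genes tested. The median log2 difference of the members was -0.24, beside 0.01 over all genes tested. Of the 8 tested Cyp3a members 5 were higher in old females and 1 lower, of the 13 Cyp2c members 1 was higher and 6 lower, and the 3 of 5 Cyp2d members that passed were lower.

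Cyp2e1 was at 7411, 4070, 6506, 5201 and 4599 CPM in young females and at 2947, 2352, 3320 and 2843 CPM in old vehicle females. Every old female was below every young one, with a log2 difference of -0.94 (SE 0.17, FDR 0.00156). Cyp1a2, which oxidises caffeine and aromatic amines, was at 863, 726, 706, 702 and 849 CPM in young and 385, 440, 460 and 443 CPM in old females, again without overlap (-0.81, SE 0.10, FDR 1.25e-04). Cyp1a1, its aryl hydrocarbon receptor-driven neighbour, was at no more than 3.04 CPM in any female and lower in the old (-1.38, FDR 0.00425). Cyp1b1 rose by 1.12 with an FDR of 0.048, but only 3 of the 5 young females reached the count that the filter asks of 4 mice, and this call was lost without any one of 8 of the 9 mice (FDR up to 0.138). Of 7 other genes of the aryl hydrocarbon receptor battery, 5 could be tested and 1 was lower in old females, Ugt1a6a.

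Cyp2c54 and Cyp2d9 had the largest falls. Cyp2c54, a fatty acid epoxygenase, was at 388, 216, 319, 403 and 243 CPM in young females and at 60.2, 16.1, 31.7 and 39 CPM in old vehicle females, a log2 difference of -3.08 (SE 0.32, FDR 6.12e-05). Cyp2d9 was at 7.95, 9.85, 7.8 and 5.85 CPM in old vehicle females, each below the lowest young female, 40.6 CPM (-2.94, SE 0.22, FDR 5.07e-06). Cyp2c40 fell to 171, 190, 189 and 173 CPM (-1.35, SE 0.10, FDR 5.07e-06, but 0.091 with all 6 groups in one fit), whereas Cyp2c69, which shares 217 of 220 compared promoter bases with it, was at 534, 389, 674 and 744 CPM (0.11, FDR 0.709). Whether these 2 genes differed from each other in their change was not tested. Lower by smaller amounts were Cyp2c67 (-1.22), Cyp2c50 (-1.08), Cyp2a5, the coumarin hydroxylase (-1.01), Cyp2c39 (-0.94), Cyp3a11, the main PXR target (-0.80), Cyp2u1 (-0.80) and Cyp2j6 (-0.72). Of these Cyp2a5 did not pass with all 6 groups in one fit or on log2(FPKM + 1) (FDR 0.0554 and 0.0806), nor did Cyp2u1 (0.053 and 0.068). Cyp2d22, the epoxygenase Cyp2j5, Cyp2d10 and Cyp2c68 were lower by 0.33 to 0.55. Cyp2d10 was lost without old vehicle female 2 or 4 and showed no fall in FPKM (log2 difference 0.01, FDR 0.925), and Cyp2c68 was lost without old vehicle female 1 or 2 and with all 6 groups in one fit (FDR 0.137). Cyp3a11 overlapped between the groups, and its call was lost without old vehicle female 1 or young female 1 or 4 (FDR up to 0.0822) and on log2(FPKM + 1) (FDR 0.0985).

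Higher in old females were 5 Cyp3a genes. Cyp3a41b was at 5.97, 2.16, 10.2, 0.517 and 4.87 CPM in young and 74.2, 39.6, 48.9 and 94.6 CPM in old vehicle females, a log2 difference of 3.77 (SE 0.48, FDR 1.72e-04). Cyp3a44 was at 124, 72.8, 137, 25.9 and 96.3 CPM in young and 339, 331, 297 and 624 CPM in old females (2.14, SE 0.37, FDR 0.00121). Cyp3a16 was at 214, 322, 336 and 476 CPM in old vehicle females, all above the young (2.22, SE 0.68, FDR 0.0258). Its call was lost without old vehicle female 4 or young female 2 (FDR up to 0.0627) and by DESeq2 (adjusted p 0.0502). Cyp3a59 rose by 1.03 and Cyp3a41a by 0.90 (FDR 0.0361), and the latter call was lost without any one of 5 mice and by DESeq2 (adjusted p 0.0808). Outside this cluster Cyp2a22 was at 113, 149, 153 and 165 CPM in old females, above each young female (1.16, FDR 7.07e-05), and Cyp2c23, an arachidonate epoxygenase, rose by 0.45.

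Counts and FPKM gave different sizes for the Cyp3a41 pair. Between old and young females the log2 difference on log2(FPKM + 1) was 1.36 for Cyp3a41b and 1.36 for Cyp3a41a, against 3.77 and 0.90 from counts. In young females the median level of Cyp3a41b was 2.36 RPKM from counts and 318.1 in the FPKM table, and for Cyp3a41a it was 64.7 and 393.5. The direction was the same in both tables, and the split between these 2 genes, which share 93.5% to 98.6% of their 50-base words, is uncertain.

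Genes that serve or control the members were tested in the same comparison. Of 8 monooxygenase partners 1 was higher in old females, Ephx1 (0.51), and 4 were lower, namely Por (-0.68), Cyb5a (-0.53), Cyb5r3 (-0.70) and Alas1, the first enzyme of heme synthesis (-0.72). Of 21 tested transcription factors of Cyp genes 4 were lower and none higher, namely the bile acid receptor Nr1h4 (-0.49) and the clock output factors Dbp (-2.93), Tef (-1.14) and Hlf (-0.62). Dbp was at 91.5 to 271 CPM in young females and 4.3 to 61.9 CPM in old vehicle females. Of 8 pericentral genes, Cyp2e1 and Cyp1a2 among them, 7 were lower, and of 8 periportal genes, Cyp2f2 among them, 5 were lower, with summed periportal levels of 18548 to 22124 CPM in young and 9825 to 16454 CPM in old females. In the same comparison 7 of 8 macrophage markers (summed 156 to 230 CPM in young, 236 to 475 CPM in old females) and 5 of 5 B and plasma cell markers (14.4 to 22.8 and 122 to 188 CPM) were higher, as were 3 of 5 T and NK cell markers, and 1 of 6 hepatocyte markers was lower. Their part in the member differences was not tested.

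In males age gave far fewer calls. Of 38 tested members 1 passed, where 3.69% of all genes tested did (2.76% higher, 0.931% lower). The groups did not overlap for 4 members, against 13.5% of all genes tested, and 7 members had an unadjusted p under 0.05, where 21.9% of all genes tested did. That member was Cyp2j5, at 525, 529, 578 and 468 CPM in young and 320, 354, 362 and 434 CPM in old vehicle males, without overlap (-0.51, SE 0.12, FDR 0.046). The call was lost without any one of 7 of the 8 mice (FDR up to 0.133). Cyp2j5 also fell in old females, to 396, 391, 420 and 384 CPM from 485 to 563 CPM (-0.40, FDR 0.00187).

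The age difference itself differed between the sexes for 4 of 44 tested members, where 3.92% of all genes tested passed (2.02% with a positive difference, 1.9% with a negative one), and all 4 changed more downwards in females than in males. Cyp2c54 was at 292, 263, 195 and 169 CPM in young males and 117, 220, 241 and 232 CPM in old vehicle males (log2 difference -0.17, FDR 0.717), and the female change minus the male change was -2.89 (SE 0.44, FDR 0.00277). Cyp2d9 had a difference of changes of -2.73 (SE 0.60, FDR 0.0199), with 313, 1371, 686 and 1899 CPM in old vehicle males, and this call was lost without old vehicle female 4 (FDR 0.0518) and on log2(FPKM + 1) (FDR 0.0815). Cyp2c67 was at 103 to 169 CPM in young females and at 64.6, 50.5, 64.4 and 56.2 CPM in old vehicle females, and at 164 to 232 CPM in young and 158 to 218 CPM in old males (-1.10, SE 0.22, FDR 0.0135). Cyp2j6 was at 58.8 to 78.6 CPM in young and 30.9 to 44.4 CPM in old females, and between 50.2 and 60.3 CPM in all young and old vehicle males (-0.72, SE 0.15, FDR 0.0166), and on log2(FPKM + 1) the FDR was 0.0519. For Cyp2c54 the sexes overlapped in young mice (females minus males 0.44, FDR 0.204) and were apart in old mice (-2.47, SE 0.37, FDR 0.0022). Among the other members the changes in the 2 sexes were not shown to differ, nor were they shown to be alike. Old females were 20 and old males 24 months old, so sex and length of ageing cannot be told apart in these differences. The 4 Cyp3a genes near 0 in males give no usable change there.

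**Figure D3:**
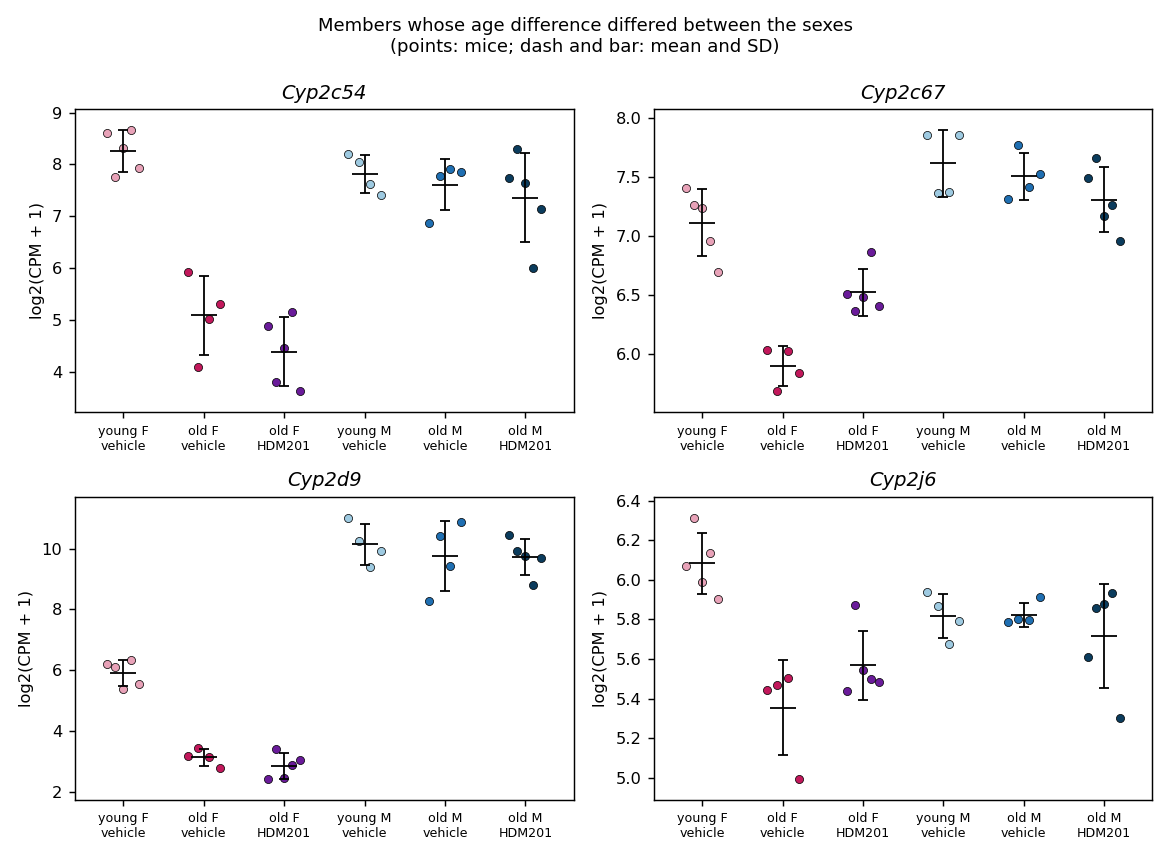
Level of Cyp2c54, Cyp2c67, Cyp2d9 and Cyp2j6 in each mouse as log2(CPM + 1) on the y axis, by group on the x axis; points are mice, dashes group means and bars the SD, and the axes do not start at 0. Old vehicle females lie below young females for each gene, while young and old vehicle males overlap.

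With HDM201 in old females 2 of 42 tested members (4.76%) passed, both higher, close to the 5.25% of all genes tested that passed, 2.35% higher and 2.9% lower. The groups did not overlap for 6 members, against 9.93% of all genes tested. Cyp2c67 was at 64.6, 50.5, 64.4 and 56.2 CPM in vehicle and 90, 81.4, 88.5, 116 and 84 CPM in HDM201 females, without overlap (0.63, SE 0.11, FDR 0.0113). Cyp2c39, a retinoic acid hydroxylase, was at 7.58, 10.2, 9.74 and 8.2 CPM in vehicle and 13.6, 18.5, 10.9, 13.2 and 14.7 CPM in HDM201 females, also without overlap (0.66, SE 0.14, FDR 0.0281). The call of Cyp2c39 was lost without any one of 4 mice (FDR up to 0.083) and with all 6 groups in one fit (FDR 0.244). On log2(FPKM + 1) neither gene passed (FDR 0.0582 for Cyp2c67 and 0.0951 for Cyp2c39). Both genes were lower in old than in young females, by 1.22 and 0.94 on the log2 scale. The 4 old vehicle females are shared by both comparisons, so their values move both.

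Of the 42 members 31 had a log2 difference above 0, with a median of 0.20 beside 0.00 over all genes tested, and 16 had an unadjusted p under 0.05, where 22.5% of all genes tested did. Cyp2a12 (0.24, FDR 0.0574), Cyp2g1 (0.65, FDR 0.0636), Cyp2c70 (0.35, FDR 0.067) and Cyp2a22 (0.69, FDR 0.067) came closest without passing. Cyp2a22 was at 113, 149, 153 and 165 CPM in vehicle and 139, 244, 200, 277 and 310 CPM in HDM201 females. The Cyp1 genes did not pass, with 0.13 for Cyp1a2 (FDR 0.627) and 0.51 for Cyp1a1 (FDR 0.287). DESeq2 called 8 members in this comparison, where it called 9.17% of all genes with an adjusted p. Of 21 transcription factors 1 passed, Hnf4a, which was lower (-0.27, FDR 0.032). Of 13 genes of the growth hormone and sex axis 1 passed, Trim24, higher by 0.37. Cux2 was at 53 to 120 CPM in vehicle and 125 to 205 CPM in HDM201 females without passing (0.72, FDR 0.0704), and no monooxygenase partner passed. Macrophage markers moved in these livers, 7 of 8 lower with HDM201 (summed 236 to 475 CPM in vehicle, 148 to 236 CPM in HDM201 females), 2 of 5 cholangiocyte markers were higher, and 0 of 6 hepatocyte markers passed. Their part in the member differences was not tested.

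In old males no member passed with HDM201 by edgeR. Of 39 tested members 4 had an unadjusted p under 0.05, where 12.1% of all genes tested did. DESeq2 called 1 (Cyp2a5), where it called 0.999% of all genes with an adjusted p. By edgeR 0.00709% of all genes tested passed, a single gene. The groups did not overlap for 1 member, Cyp2c23 (-0.34, FDR 0.269), against 4.03% of all genes tested. Cyp2a5 was at 919, 197, 669 and 700 CPM in old vehicle males 2 to 5 and at 248, 209, 265, 158 and 111 CPM in HDM201 males. Vehicle male 3 lay within the HDM201 range and the other 3 above it (-1.64, SE 0.38, FDR 0.205). Without vehicle male 3 the FDR was 0.0385. Cyp2a4, its near copy, was at 242, 0.232, 89.3 and 2.55 CPM in the same vehicle males and at 2.29, 10.5, 0.921, 5.85 and 0.387 CPM in HDM201 males (-4.37, SE 1.37, FDR 0.286). Only 2 of the 4 vehicle males were above the HDM201 range. Old and young vehicle males overlapped too, the young being at 0.843, 0.284, 3.8 and 0.681 CPM (5.90, SE 1.64, FDR 0.0725).

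Old vehicle males 2 and 4, the 2 with high Cyp2a4, also had the highest Cyp2c69 among all males with counts, 13.7 and 11.9 CPM against 0 to 7.77 in the other 11. Their Cyp2d9, 313 and 686 CPM, and their Cyp2u1, 14.6 and 17.5 CPM, were the lowest of the 4 old vehicle males. Cux2 was at 3.93 and 4.25 CPM in these 2 and at 0.87 and 0.212 CPM in males 3 and 5. Of the 4 Cyp3a genes near 0 in males, Cyp3a16 and Cyp3a44 stayed under 0.3 CPM in both. In male 4 Cyp3a41a was at 0.402 CPM (7 counts) and Cyp3a41b at 0.115 CPM (2 counts). Both had 0 counts in old vehicle males 2, 3 and 5. Old vehicle male 1, known from FPKM alone, gave a mixed picture. Its Cyp2a4 (58.75 FPKM) was above that of male 4 (50.14). Its Cyp2c69 (2.496 FPKM) and Cyp2c40 (6.154) were the lowest of the 5 old vehicle males, and its Cyp2d9 was 849.3 FPKM. Of other members higher in females, its Cyp2g1 was 9.698 FPKM and its Cyp2a22 2.363, beside medians of 0.7568 and 1.342 in the 4 with counts. Its Cyp2c39 (0.5061 FPKM) and Cyp2c37 (86.24) were under the medians of those 4 (1.089 and 187.4). Comparisons that use the old vehicle males rest on the 4 with counts, 2 on each side of this split in Cyp2a4.

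**Figure D4:**
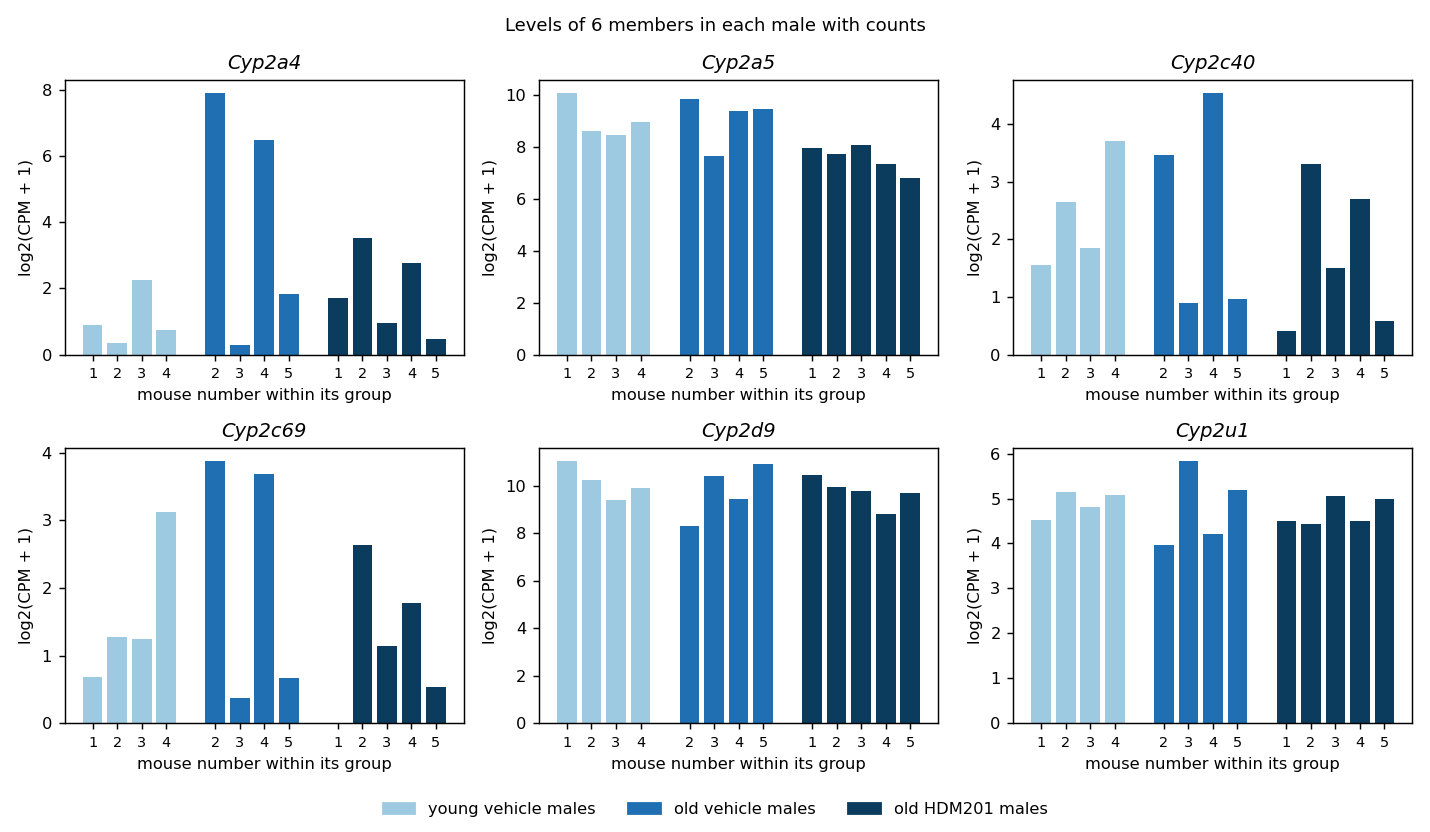
Level of 6 members in each of the 13 males with counts as log2(CPM + 1) (bar height, axes from 0), by mouse number within its group on the x axis. Old vehicle males 2 and 4 have high Cyp2a4 and Cyp2c69 bars, and the 5 HDM201 males have Cyp2a5 bars at or under 265 CPM.

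The effect of HDM201 was not shown to differ between the sexes for any of 43 tested members by edgeR, where 0.107% of all genes tested passed (0.0735% with a positive difference, 0.0334% with a negative one). Of these members 7 had an unadjusted p under 0.05, where 18.5% of all genes tested did, and DESeq2 called 3, where it called 4.58% of all genes with an adjusted p. Cyp2c67 came closest, with the female change above the male change by 0.82 (FDR 0.062), followed by Cyp2a4 (4.91, FDR 0.0917) and Cyp2a5 (1.85, FDR 0.0977). The last 2 passed without old vehicle male 3 (FDR 0.0485 and 0.049). Of 13 genes of the growth hormone and sex axis 1 passed this interaction test, with the female change above the male change. In the test of old males alone the single gene called was Cish, a feedback target of STAT5. Cish was at 47.4, 32.5, 27.1 and 24.1 CPM in vehicle and 7.54, 9.67, 9.79, 12 and 8.07 CPM in HDM201 males (-1.79, FDR 0.035).

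Some members, abundant ones among them, passed in few or none of the 8 tests by edgeR. Cyp2c29, which hydroxylates aldehydes and epoxygenates fatty acids, averaged 1271 ± 178 CPM (SD, n = 5) in young females, 1360 ± 68.5 (n = 4) in old vehicle females and 1556 ± 188 (n = 5) in HDM201 females. In males Cyp2c29 averaged 1677 ± 240 (n = 4), 1115 ± 295 (n = 4) and 927 ± 304 (n = 5) CPM in the same order, and its closest test was that between young females and males (-0.41, FDR 0.0765). DESeq2 called Cyp2c29 in 3 of the 8 tests, those of age in males, sex in young mice and the interaction of sex and age, and the last also passed on FPKM. Cyp2r1, a vitamin D hydroxylase of the liver, had group means of 16.1 to 20.1 CPM, and its log2 differences between groups ran from -0.25 to 0.17. Cyp3a25, a neighbour of the Cyp3a genes that males lacked, had group means of 526 to 620 CPM and differed between the sexes by -0.24 in young (FDR 0.271) and 0.15 in old mice (FDR 0.358). Cyp2f2, a naphthalene-oxidising P450 of the periportal zone, passed only in old females against old males (-0.74, FDR 0.0124). A test that was not passed does not show that the groups were alike.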

How the data were processed

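Poly(A) RNA of whole liver was sequenced by the authors, with 29 mice in 6 groups. Per the labels the authors used STAR, HTSeq and Cufflinks with mm10, with no versions given. They deposited raw read counts per gene for 27 mice and FPKM for all 29, and the counts totalled 16485900 to 23570458 per mouse. Read strand in counting is not given in the sources used here.

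Counts were tested in R 4.3.3 with edgeR 4.0.16. Genes passed filterByExpr with a count minimum of 10 and a total minimum of 15, libraries were scaled by TMM, and the quasi-likelihood F-test was used with Benjamini-Hochberg adjustment over all genes tested and an FDR limit of 0.05. A fit held only the groups it compared, with interactions fitted on 4 groups. CPM are on TMM-scaled libraries and RPKM use exon lengths of GENCODE. Deposited FPKM were tested as log2(FPKM + 1) with limma 3.58.1. Ratios against 1 to 3 counts carry exact 95% binomial intervals, and a group at 0 was set to a floor of 3 counts over the group, both for counting error only. The fitting script was tested on simulated data.

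The members and gene lists were chosen with earlier results of these data known. Named with values were the 10 called members with the largest change in each direction of each comparison, and 21 representatives of subfamilies, sex classes and zones. Others named were chosen after their values were seen. The labels do not say whether mice shared a cage or were handled together, so p-values measure the spread between these mice. Alternatives were RLE size factors, DESeq2 1.42.0, no low-count filter, all 6 groups in one fit, replicate number as a block, an FDR limit of 0.01, FPKM with pseudocounts of 1 and 0.1, and leaving out each mouse. The correlation between libraries was at most 0.994, and none held identical values.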

Additional observations from a re-analysis of the deposited data

Results flagged for a closer look

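For 4 members the change from young to old differed between the sexes by an interaction test, with old females at 20 and old males at 24 months. The female change minus the male change, on the log2 scale, was -2.89 for Cyp2c54, -2.73 for Cyp2d9, -1.10 for Cyp2c67 and -0.72 for Cyp2j6.

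In 21 of 190 combinations of a named gene and a group, 1 mouse stood apart from the rest of its group, and chance alone does so in about 1 of 20 groups. Among old vehicle females, mouse 1 stood apart for Cyp1b1 (1.75 CPM), Cyp2a4 (985 CPM) and Cyp2c37 (825 CPM), and mouse 4 for Cyp2j6 (30.9 CPM) and Cyp3a44 (624 CPM). Young female 2 was low for Cyp2c37, at 400.4 CPM. Among HDM201 females, mouse 2 was high for Cyp2c40 (271 CPM) and Cyp2j6 (57.7 CPM), and mouse 4 for Cyp2c67 (116 CPM).

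Among young males, mouse 4 was high for Cyp1b1 (1.82 CPM), Cyp2c69 (7.77 CPM) and Cyp3a41b (0.0454 CPM), mouse 3 for Cyp2a4 (3.8 CPM) and mouse 1 for Cyp2d22 (455 CPM). Among old vehicle males, mouse 4 stood apart for Cyp2g1 (1.72 CPM), Cyp3a41a (0.402 CPM) and Cyp3a41b (0.115 CPM), and mouse 5 for Cyp2j6 (59.3 CPM). Among HDM201 males, mouse 4 was low for Cyp2e1 (2245 CPM, against 3669 to 4223 in the others), and mouse 2 was high for Cyp2j9 (20.8 CPM) and Cyp3a41a (0.107 CPM). The Cyp3a41a and Cyp3a41b values in males rest on a few counts.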

How the results depend on the processing

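Of 666 recomputed values for the 74 called gene results, 589 kept the call, 75 lost it and 2 reversed, both of Cyp2d10 between old and young females (0.0112 and 0.0113 on FPKM with pseudocounts of 1 and 0.1, against -0.34). Of 122 named results that did not pass, 22 changed sign and 20 passed in an alternative other than leaving out a mouse. One that passed was Cyp2c37 between old and young females (0.43, FDR 0.0525), by DESeq2, without the low-count filter and on FPKM with both pseudocounts. The 25 members called between old and young females stayed between 17 and 26, the 18 between the sexes in young mice between 18 and 24, and the 24 in old mice between 16 and 28 under the alternatives other than leaving out a mouse. For HDM201 in old females the count of 2 became 8 with DESeq2, 6 without the low-count filter, 1 with all 6 groups in one fit, 0 at an FDR limit of 0.01, and 1 (Cyp2c68, not one of the 2) and 0 on FPKM with pseudocounts of 1 and 0.1. Over all genes that comparison called 758, against 1330 with DESeq2 and 208, 110, 170 and 87 under the last 4 of these. For HDM201 in old males 0 became 1 with DESeq2. For age in males 1 became 4 with DESeq2, 3 without the filter, 2 with all groups, and 0 at 0.01. The interaction of sex and HDM201 went from 0 to 3 with DESeq2 and 1 without the filter, and that of sex and age from 4 to 7 with DESeq2, 1 at 0.01, and 7 on FPKM with a pseudocount of 1. The cause of these moves was not tested.

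With a replicate block the age count in males was 0, and the counts were 3 for HDM201 in females, 0 in males, 23 for age in females, and 19 and 18 for sex in young and old mice. Of 22 same-numbered pairs 5 had a correlation over 0.1 (range -0.222 to 0.222). They included 2 of 4 pairs between the sexes in young mice and 2 of 3 in old mice. So few pairs cannot show whether same-numbered mice shared handling or a batch. The block lost 11 of the 74 called results, and 7 samples correlated best with their own number.

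Leaving out 1 mouse gave 1 to 3 members for HDM201 in females (1 without vehicle female 1 or 2 or HDM201 female 4), 0 to 1 in males (1 without vehicle male 3), 21 to 26 for age in females, 0 to 2 in males (0 without old male 4 or any young male, 2 without old male 5), 17 to 21 and 21 to 27 for sex in young and old mice, 0 to 2 for sex and HDM201 (2 without vehicle male 3, 1 without vehicle female 3 or HDM201 male 2), and 3 to 7 for sex and age (7 without young male 1, 3 without old female 4). Cyp3a11 lost its sex call in old mice without old female 1 (FDR 0.0604).

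Depth limits the low genes: Cyp2d12, Cyp2j8 and Cyp2t4 were not tested between groups. Near-identical copies limit the values of the Cyp3a41 pair, Cyp2a4, Cyp2a5, Cyp2c40, Cyp2c67, Cyp2c68 and Cyp2c69. Other members share 50-base words too, such as Cyp2d10 with 35.8%, chiefly with Cyp2d11, and Cyp2c37 with 30.1%, chiefly with Cyp2c50. Substrain and age cannot be told apart.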

Other observations

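Of the mice with FPKM but no counts, old vehicle male 1 had 58.75 FPKM of Cyp2a4, beside 142.7, 0.781, 50.14 and 5.115 in old vehicle males 2 to 5 and 0.6693 to 6.418 in HDM201 males. Its Cyp2a5 was 1829 FPKM, beside 93.07 to 447.8 in the other old vehicle males and 58.19 to 132.1 in HDM201 males. It was the highest of all males for Cyp2a5, and its Cyp2a4 was above every HDM201 male. Its Cyp2d9 was 849.3 FPKM. Young male 5 had 7.694 FPKM of Cyp2a5, against 152.8 to 492.7 in the other young males, and 0.1977 FPKM of Cyp2a4, against 1.816 to 4.596. The study's methods exclude 1 young male with an open wound and suspected infection, and whether young male 5 is that mouse is not given in the sources used here.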
